A study of Mus musculus with 10 samples.

Results

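The genes described here encode the NF-κB subunits: Nfkb1, Nfkb2, Rel, Rela and Relb. ATAC-seq peaks that overlapped one of these genes, as annotated in GENCODE M21 on mm10, or the 20 kb on either side of it, were taken from 5 deposited peak lists and merged where they shared at least 1 bp. This gave 68 regions of 211107 in the whole series. The Nfkb1 window held 26, the Nfkb2 window 12, the Rel window 12, the Rela window 10 and the Relb window 8. Peaks were assigned to the windows by position only, and the genes were chosen with earlier results of these data known.

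Myc-CaP cells, a male mouse prostate cancer line of the FVB/NJ strain derived from a tumour with a prostate-driven Myc transgene, were cultured for 48 h in 5 ways. Ctrl cells were given no agent. Oxali cells were given oxaliplatin at 2 µM, and Cispl cells the related drug cisplatin at 2 µM. IFNγ cells were given interferon-γ, labelled 1000 pg and given per ml in the study's methods, and Oxali + IFNγ cells both oxaliplatin and interferon-γ at those amounts. The Myc transgene is shared by all groups, and 1 cell line cannot stand for prostate tumours in general. Each group had 2 libraries, which the authors pooled before calling peaks, so each group is a single list, no spread between replicates can be given and no difference below could be tested.

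NF-κB transcription factors are dimers of these subunits, held in the cytoplasm by IκB proteins until an upstream kinase complex triggers IκB destruction. RelA, c-Rel and RelB (genes Rela, Rel and Relb) carry transcription activation domains. Nfkb1 and Nfkb2 encode the precursors p105 and p100, which are processed to p50 and p52 and which hold IκB-like ankyrin repeats of their own. Dimers of RelA and p50 serve the canonical pathway, and RelB with p52 the alternative pathway. Several subunit genes are themselves NF-κB targets, and NF-κB acts beside interferon-induced factors at genes of inflammation and antigen presentation. ATAC-seq inserts adapters where a transposase can reach DNA, and so reports how open a promoter or enhancer is, not how much protein is made.

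The promoter sequences are shown first because they hold the candidate recognition sites of the family within its own genes. The RefSeq promoter table (GRCm38.p6, the assembly of mm10) had 1 promoter for Rel, 1 for Rela and 3 for Nfkb2. Nfkb1 and Relb had no entry. These letters are of the reference strain and were not read from the FVB/NJ cells. Capitals mark exact matches, on either strand, to the κB consensus, the 10-letter recognition sequence of NF-κB dimers. Of 32851 promoters in the table, each 250 bases before to 50 after the start, 4.51% held such a match. The Rel promoter, chr11:23770971-23771219 on the minus strand and cut where the 5′ UTR begins, held a pair of overlapping matches that start 92 and 91 bases before the annotated start. The Rela promoter, chr19:5637291-5637482 on the plus strand and cut likewise, held no match, and neither did its whole entry in the table.
Rel promoter: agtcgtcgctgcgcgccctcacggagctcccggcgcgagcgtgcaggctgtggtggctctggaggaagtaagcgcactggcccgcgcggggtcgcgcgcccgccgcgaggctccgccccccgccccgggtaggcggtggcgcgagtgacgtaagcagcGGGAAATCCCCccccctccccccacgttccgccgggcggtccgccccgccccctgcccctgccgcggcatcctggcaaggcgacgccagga
Rela promoter: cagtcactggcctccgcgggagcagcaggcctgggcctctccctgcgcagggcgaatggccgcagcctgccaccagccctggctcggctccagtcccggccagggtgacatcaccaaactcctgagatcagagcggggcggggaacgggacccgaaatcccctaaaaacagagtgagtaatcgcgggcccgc

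Nfkb2 has several start sites. At the start chr19:46304737 the promoter lies in an annotated 5′ UTR, and only its κB sites are given, with bases on either side to a length of 30. The first holds overlapping matches 39 and 38 bases before the start and the second a match 11 bases before it. At the start chr19:46305695 a match lies 236 bases before the start, in the stretch chr19:46305445-46305695, and another 10 bases after it. The third promoter in the table, for the start chr19:46305930, shares this last match and has no other. All 3 Nfkb2 starts fall inside one accessible region, chr19:46303995-46306217.
Nfkb2 site, chr19:46304689-46304718: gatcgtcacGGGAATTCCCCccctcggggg
Nfkb2 site, chr19:46304716-46304745: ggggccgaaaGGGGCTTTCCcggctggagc
Nfkb2 site, chr19:46305695-46305724: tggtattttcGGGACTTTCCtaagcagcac
Nfkb2 promoter, plus strand: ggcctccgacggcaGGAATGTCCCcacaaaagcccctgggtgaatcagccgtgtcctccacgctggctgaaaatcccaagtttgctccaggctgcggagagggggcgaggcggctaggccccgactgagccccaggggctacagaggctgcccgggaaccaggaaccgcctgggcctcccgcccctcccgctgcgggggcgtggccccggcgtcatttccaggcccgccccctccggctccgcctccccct

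Accessibility is given as a level. The level is the highest pileup in a region, a count of extended transposase cuts, divided by the genome background of its list, which scales with depth. That background ran from 9.62 in IFNγ to 13.8 in Cispl, with 12.1 in Ctrl, so the treated depths were 79.3 to 113% of that of Ctrl. Intervals beside levels and ratios are exact 95% Poisson or binomial intervals and cover counting error only, and both ends of a fragment can add to a pileup. Over the 85377 regions called in every list, the median ratio to Ctrl was 0.841 in IFNγ, 1.05 in Cispl, 1.10 in Oxali + IFNγ and 1.11 in Oxali. On the log2 scale these shifts were −0.25, 0.07, 0.14 and 0.15, and single ratios are read against them. The identity of the cells was checked on markers: of 7 prostate and luminal epithelial genes 4 to 5 had a start-site region, with Foxa1, a luminal transcription factor gene, at levels of 76.9 to 98.6. None of 3 leukocyte genes had one in any list, and of 2 endothelial genes at most 1, at levels up to 2.98. Both fibroblast genes, Col1a1 and Pdgfra, had start-site regions at 28.4 to 112 in every list, and their summed level was 162 in Ctrl and 113 to 138 in the treated lists. The part of other cell types in the results below was not tested.

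All 5 subunit genes had an open main start site in every list. Ctrl had 42 of the 68 regions called and Oxali 44, IFNγ had 41, Oxali + IFNγ had 50, and Cispl had the most with 59. The whole lists also differed, with 122298 intervals in Ctrl, 158621 in Oxali, 118949 in IFNγ, 174709 in Oxali + IFNγ and 174048 in Cispl. In every called member region the best interval had a q-value of at most 0.01, here called strong. The member regions covered 31.0 kb of Ctrl and 41.9 kb of Cispl, with mean levels of 37.4 and 22.8. The other lists covered 30.3 to 38.7 kb with mean levels of 23.5 to 30.8. Of the 68, 32 were called in all lists, or 47.1% against 40.4% of all regions. A further 18 were called in 1 list only, or 26.5% against 23.7% overall. Cispl alone called 9 of these, 13.2% of members against 9.11% of all regions, and IFNγ alone 5, 7.35% against 2.55%. The Cispl list ends at a −log10 p of 2.99 where the others reach 2.00, so a call at the genome background needed a pileup of 26 there against 18 to 22 elsewhere.

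The strongest subunit promoter in untreated cells was that of Nfkb2, the p100 gene, and the weakest that of Nfkb1, the p105 gene. Every main start site had a lower level in every treated list than in Ctrl, but scaling by the median ratio turned Nfkb1 and Nfkb2 above Ctrl in IFNγ. On the level scale the ratio was closest to 1 at Nfkb1 and lowest at Relb in each treated list. With median-ratio scaling Nfkb2 was closest to 1 in IFNγ, and by the deposited fold over the local background Rela or Nfkb2 was closest in every list and Rel lowest in Oxali + IFNγ. Levels below are of the region over the main start site, Ctrl first, then Oxali, then Cispl, then IFNγ, and last the combination.

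**Figure D1:**
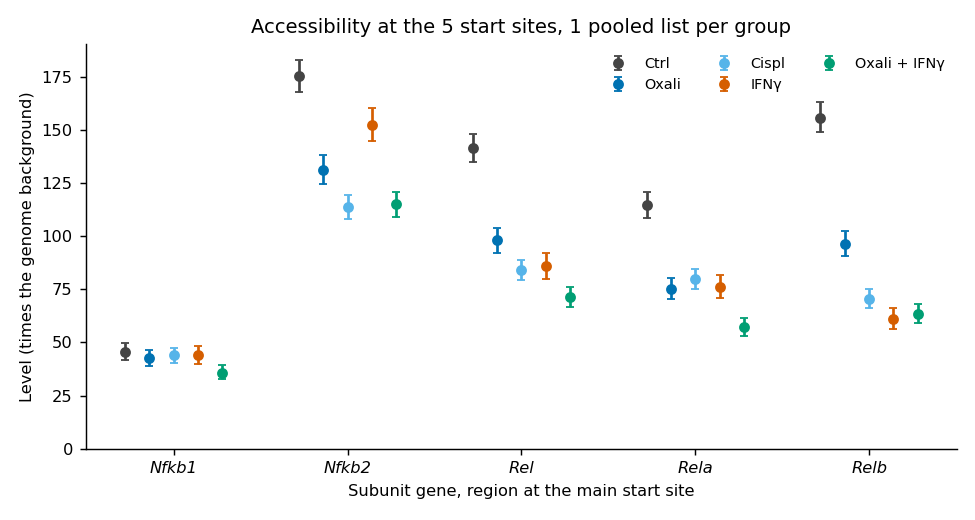
Level at the main start site of each subunit gene (y axis, times the genome background) in the 5 pooled lists; points are 1 list each and bars are exact 95% Poisson intervals of the pileup. Ctrl is the highest point for every gene, from 45.7 at Nfkb1 to 175 at Nfkb2; with median-ratio scaling IFNγ would exceed it at Nfkb1 and Nfkb2.

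Rela encodes p65, the main activating subunit of the canonical pathway. Its start-site region, chr19:5636788-5638093, stood at 115, 75.2, 79.8, 76.2 and 57.2. The Ctrl interval, 109 to 121, lay above those of all treated lists, and the lowest value was that of Oxali + IFNγ, at 0.499 of Ctrl (0.456 to 0.546). This fall depended on the scale, since the deposited fold over the local background was 15.4 in Ctrl and 14.3 to 15.1 in the treated lists, a ratio of 0.927 in Oxali + IFNγ.

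Rel encodes c-Rel, best known from lymphoid cells. Its region, chr11:23770134-23771952, stood at 141, 98.0, 84.0, 85.8 and 71.4. All treated lists lay below Ctrl, and the combination was again lowest, at 0.505 of Ctrl (0.466 to 0.547). This region holds the κB pair shown above within 100 bp of its summit.

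Relb encodes the activating partner of p52. Its region, chr7:19628281-19629701, had its summit in intron 1 and stood at 156, 96.4, 70.7, 61.1 and 63.6. Only Nfkb2 was above it in Ctrl, whereas in Cispl and IFNγ only Nfkb1 was below it. In IFNγ it was at 0.392 of Ctrl (0.357 to 0.431), the lowest start-site ratio. With median-ratio scaling its lowest ratio was instead that of Oxali + IFNγ, at 0.371, against 0.433 in Cispl and 0.466 in IFNγ. By the fold over the local background the ratio was 0.609 in IFNγ and 0.750 in Oxali + IFNγ.

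Nfkb1 had the widest gene, 107 kb with 25 exons, and the lowest start site. Its region, chr3:135690522-135692108, over exon 1, stood at 45.7, 42.6, 44.0, 44.2 and 35.9. The intervals of the ratio included 1 in Oxali, Cispl and IFNγ, and in Oxali + IFNγ the ratio was 0.785 (0.692 to 0.889). In IFNγ, scaling by the median ratio turned its ratio of 0.966 into 1.15.

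Nfkb2, which encodes p100, stood at 175, 131, 114, 152 and 115 over the region that spans the 3 starts given above. The interval of the IFNγ ratio, 0.869 (0.812 to 0.929), did not include 1 and lay above those of the other 3 treated lists, but median-ratio scaling turned it into 1.03. The ratios in Cispl, 0.648 (0.606 to 0.692), and Oxali + IFNγ, 0.656 (0.613 to 0.701), had overlapping intervals, and median-ratio scaling turned their order.

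Order and neighbours differed between lists. In Ctrl the order was Nfkb2, Relb, Rel, Rela and Nfkb1, with no overlap of neighbouring intervals. In IFNγ it was Nfkb2, Rel, Rela, Relb and Nfkb1, and only the intervals of Rel and Rela overlapped. In Oxali those of Rel and Relb overlapped, and in Cispl and Oxali + IFNγ the 3 activating subunits followed one another with overlapping intervals. Nfkb2 was highest and Nfkb1 lowest in every list.

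A fall of this size was common at strong promoters. Of the 5 start sites, 2 in Oxali, 3 each in Cispl and IFNγ and 4 in Oxali + IFNγ were at least 1.5-fold lower than in Ctrl, and with median-ratio scaling 3, 4, 1 and 4 were. Among the 5196 start-site regions with a Ctrl level of 100 or more, a class that holds every main start site but that of Nfkb1, the share was 49.8% in Oxali, 86.3% in Cispl, 56% with IFNγ alone and 94.4% with both. The median ratios of that class were 0.667, 0.575, 0.651 and 0.469. Divided by the median of all regions of like Ctrl level, Nfkb2 was above 1 in every treated list, at 1.10 to 1.35, and Relb below 1 in every one, at 0.589 to 0.911. Rel was above 1 in each list with platinum, Rela in Cispl and Oxali + IFNγ, and Nfkb1 in Cispl and IFNγ. Rel lay near these medians in each list, with 34.6 to 63.5% of the class below it. Rela did so in Oxali, IFNγ and Oxali + IFNγ, with 45.7 to 61.2% below it, while in Cispl 91.6% of the class was lower.

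Relb and Nfkb2 stood at opposite ends of the class in IFNγ. Only 43 of the 5196 regions, 0.828%, had a lower IFNγ ratio than Relb, and 4.02% had a lower ratio in Cispl. In Oxali and Oxali + IFNγ, 28.5 and 25.7% did. For Nfkb2, 97.7% of the class had a lower ratio in IFNγ and 93.5% in Oxali + IFNγ, against 79.3% in Oxali and 80.8% in Cispl. These places are a description of single lists without replicates. For Nfkb1, set against 2259 start-site regions with a Ctrl level from 20 to 50, 85.2% were lower in IFNγ. In Cispl 72.6% of such regions were lower, in Oxali 50.4% and in Oxali + IFNγ 44.7%, so Nfkb1 lay near the middle of its class in the oxaliplatin lists.

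**Figure D2:**
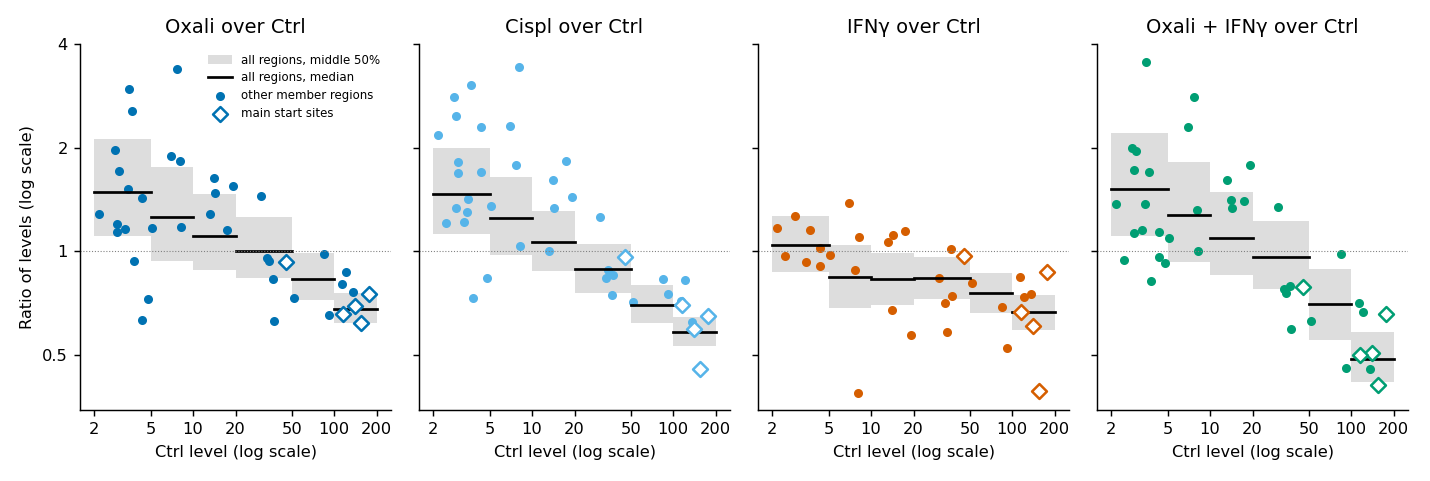
Ratio of the level in each treated list to that in Ctrl (y axis, log scale) against the Ctrl level (x axis, log scale) for member regions called in both lists; diamonds are the 5 main start sites, black lines the median and grey bands the middle 50% of all regions of the series in a class of Ctrl level. In Oxali, Cispl and Oxali + IFNγ the class medians fall from 1.47 to 1.52 in the weakest class to 0.485 to 0.679 in the strongest. The main start sites in the strongest class also lie below 1.

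In Oxali and Cispl more members were higher than lower, as was also so over all regions of the series. Median-ratio scaling evened out the member counts in Oxali. Among member regions called in both lists, 10 of 39 were at least 1.5-fold higher in Oxali and 5 lower. This was 25.6% and 12.8%, against 29.2% and 7.68% of all such regions. In Cispl, 13 of 41 were higher and 4 lower, 31.7% and 9.76% against 25.5% and 12%. In Oxali + IFNγ, 9 of 40 were higher and 8 lower, 22.5% and 20% against 30.4% and 14.3%. In IFNγ, 0 of 33 were higher and 7 lower, 0% and 21.2% against 4.26% and 18.4%. Scaling by the median ratio made this 2 higher and 3 lower in IFNγ, and 7 higher and 8 lower in Oxali. The 34 regions within introns include some in neighbouring genes. Of the 34, 16 were called in both Oxali and Ctrl, with a median ratio of 1.22, and 17 in both Cispl and Ctrl, with a median of 1.42. In IFNγ the median of 13 was 0.977. Over all shared regions of the series the medians in Oxali, Cispl and IFNγ were 1.14, 1.09 and 0.854. For those with a Ctrl level under 5 they were 1.48, 1.47 and 1.04.

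By count, Nfkb1, whose window held the most regions, supplied most of the increases in Oxali and Cispl. In its window 7 of 13 shared regions were higher in Oxali and 1 lower, 8 of 15 were higher in Cispl and 0 lower, and 4 of 14 were higher in Oxali + IFNγ and 1 lower. In Relb 0 of 5 were higher in each platinum list, in Rela 0 of 7 in Oxali and in Cispl, and 2 of 7 in Oxali + IFNγ. In Nfkb2 2 of 9 were higher in Oxali, 4 of 9 in Cispl and 2 of 9 in Oxali + IFNγ. In Rel 1 of 5 was higher in each of the 3 lists with platinum. Weak regions rose over the whole series. Of all shared regions with a Ctrl level under 5, 49.0% were at least 1.5-fold higher in Oxali and 48.1% in Cispl. Relative to all regions of like Ctrl level, an alternative chosen after seeing the data, 4 member regions were 1.5-fold higher in Oxali, 8 in Cispl and 4 in Oxali + IFNγ. In Oxali these were in Nfkb1 introns 1 and 18, at 2.00 and 1.73, and in Psd beside Nfkb2, at 2.70 and 1.51. In Cispl most of the 8 lay in the Nfkb1 window.

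**Figure D3:**
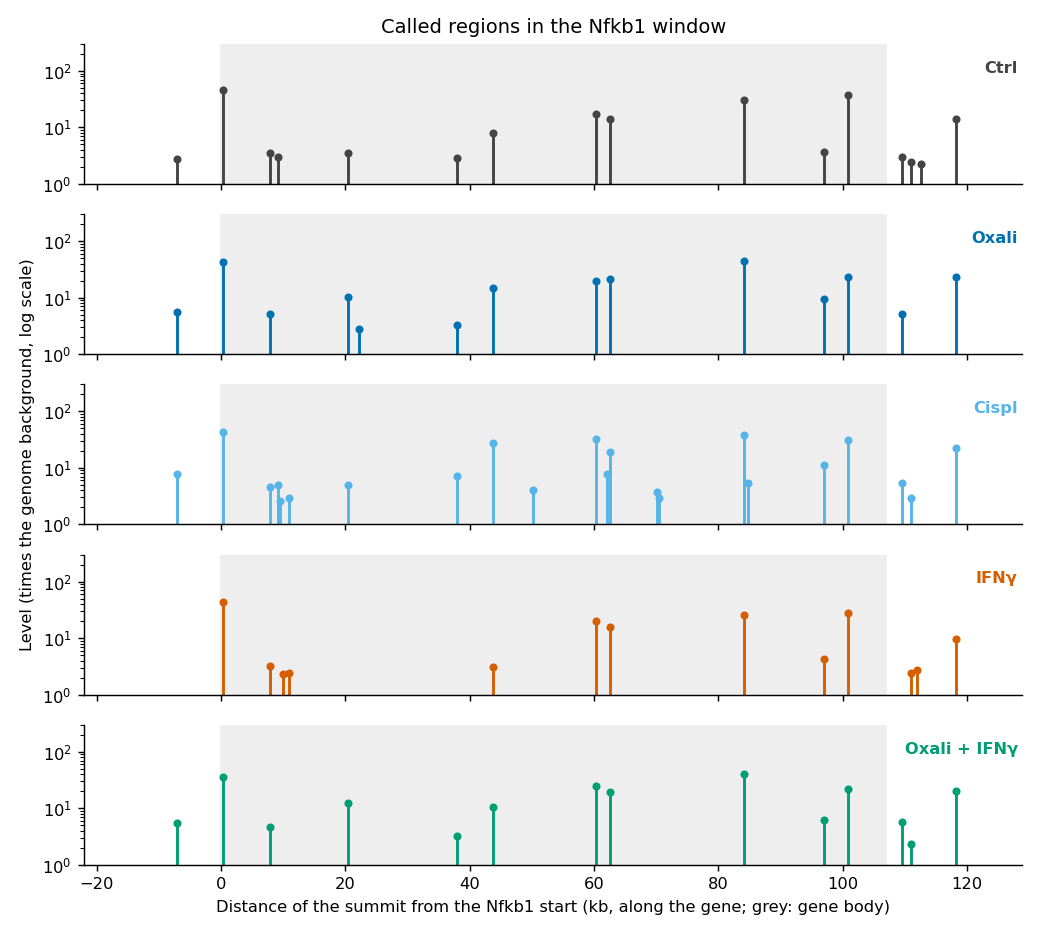
Called regions in the Nfkb1 window by list: the x axis is the distance in kb of the summit from the Nfkb1 start, positive along the gene, and the y axis the level on a log scale; the gene body is grey. Cispl shows the most regions, 22 of 26, and the region 20.5 kb into the gene has no stem in IFNγ.

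The largest changes in the Nfkb1 window lay in introns 1, 6 and 18. The intron 6 region chr3:135647575-135648422, 43.7 kb from the start, had a pileup of 98 in Ctrl. It reached 381 in Cispl, 166 in Oxali and 137 in Oxali + IFNγ, and was 30 in IFNγ. As a ratio of levels to Ctrl this was 3.43 in Cispl (2.74 to 4.33), 1.82 in Oxali (1.41 to 2.37) and 0.386 in IFNγ (0.248 to 0.587). It was the highest ratio in Cispl and the lowest in IFNγ among all member regions. With median scaling the IFNγ ratio was 0.459.

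The intron 1 region chr3:135670592-135671455 followed the oxaliplatin lists. Its pileups were 43 in Ctrl, 118 in Oxali, 69 in Cispl and 162 in Oxali + IFNγ, and it was not called in IFNγ. The ratio was 2.96 in Oxali (2.07 to 4.29), 3.54 in Oxali + IFNγ (2.52 to 5.08) and 1.42 in Cispl, whose interval, 0.953 to 2.12, included 1. The middle 50% of all regions with a Ctrl level under 5 ran from 1.11 to 2.11 in Oxali, and their median in Oxali + IFNγ was 1.52.

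The intron 18 region chr3:135594289-135594841, within 1 kb of the start of an Nfkb1 transcript that is not annotated as coding, had pileups of 45, 107, 155, 41 and 81 from Ctrl to the combination. It was 2.56 times Ctrl in Oxali (1.79 to 3.71) and 3.04 times in Cispl (2.17 to 4.33). Its local background in Ctrl was 22.4, above the genome background. The region chr3:135698460-135698983, upstream of the gene, was 1.96 times Ctrl in Oxali (1.27 to 3.08), 2.80 times in Cispl (1.89 to 4.25) and 1.99 times in Oxali + IFNγ (1.31 to 3.09), and was not called in IFNγ. Its Ctrl pileup was 34, a level of 2.80. All regions with a Ctrl level under 5 had median ratios of 1.48 in Oxali, 1.47 in Cispl and 1.52 in Oxali + IFNγ. Divided by these medians, the upstream region was at 1.33 in Oxali, 1.91 in Cispl and 1.31 in Oxali + IFNγ. Only the Cispl value was past 1.5-fold, so most of its rise in the oxaliplatin lists was shared by weak regions of the series.

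A region in Nfkb1 intron 22, chr3:135590254-135591131, went the other way. Its pileup was 452 in Ctrl and 436 in Cispl, against 263 in Oxali, 266 in IFNγ and 285 in Oxali + IFNγ. The ratio was 0.627 in Oxali (0.536 to 0.731) and 0.593 in Oxali + IFNγ (0.510 to 0.689), and 0.851 in Cispl (0.744 to 0.973). Relative to regions of like Ctrl level it was at 0.625 and 0.617 in the oxaliplatin lists and at 0.958 in Cispl. The region chr3:135607040-135608139 in intron 13, at the start of a shorter coding transcript of Nfkb1, was higher in the lists with platinum, with pileups of 366, 492, 523, 243 and 524. Its ratio was 1.45 in Oxali, 1.35 in Oxali + IFNγ, 1.26 in Cispl and 0.838 in IFNγ, all within 1.5-fold. A further intron 6 region, chr3:135631133-135632714, rose past 1.5-fold in Cispl alone, to 1.83 (1.55 to 2.17).

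The next 2 sequences are shown because these introns changed most in the Nfkb1 window. Each is the 201 bases of the plus strand of GRCm38.p6 centred on the summit, and capitals mark the only match among the 6 searched motifs, a GAS element (TTCNNNGAA). The intron 6 stretch held no match.
Nfkb1 intron 1, chr3:135670949-135671149: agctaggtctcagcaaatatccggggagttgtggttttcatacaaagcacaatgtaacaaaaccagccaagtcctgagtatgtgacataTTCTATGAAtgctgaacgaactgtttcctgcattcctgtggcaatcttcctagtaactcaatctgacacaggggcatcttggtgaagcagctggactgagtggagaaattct
Nfkb1 intron 6, chr3:135647734-135647934: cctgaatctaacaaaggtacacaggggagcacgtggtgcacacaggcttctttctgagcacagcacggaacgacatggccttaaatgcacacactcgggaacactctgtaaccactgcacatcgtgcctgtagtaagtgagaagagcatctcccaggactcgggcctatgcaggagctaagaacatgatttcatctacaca

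**Figure D4:**
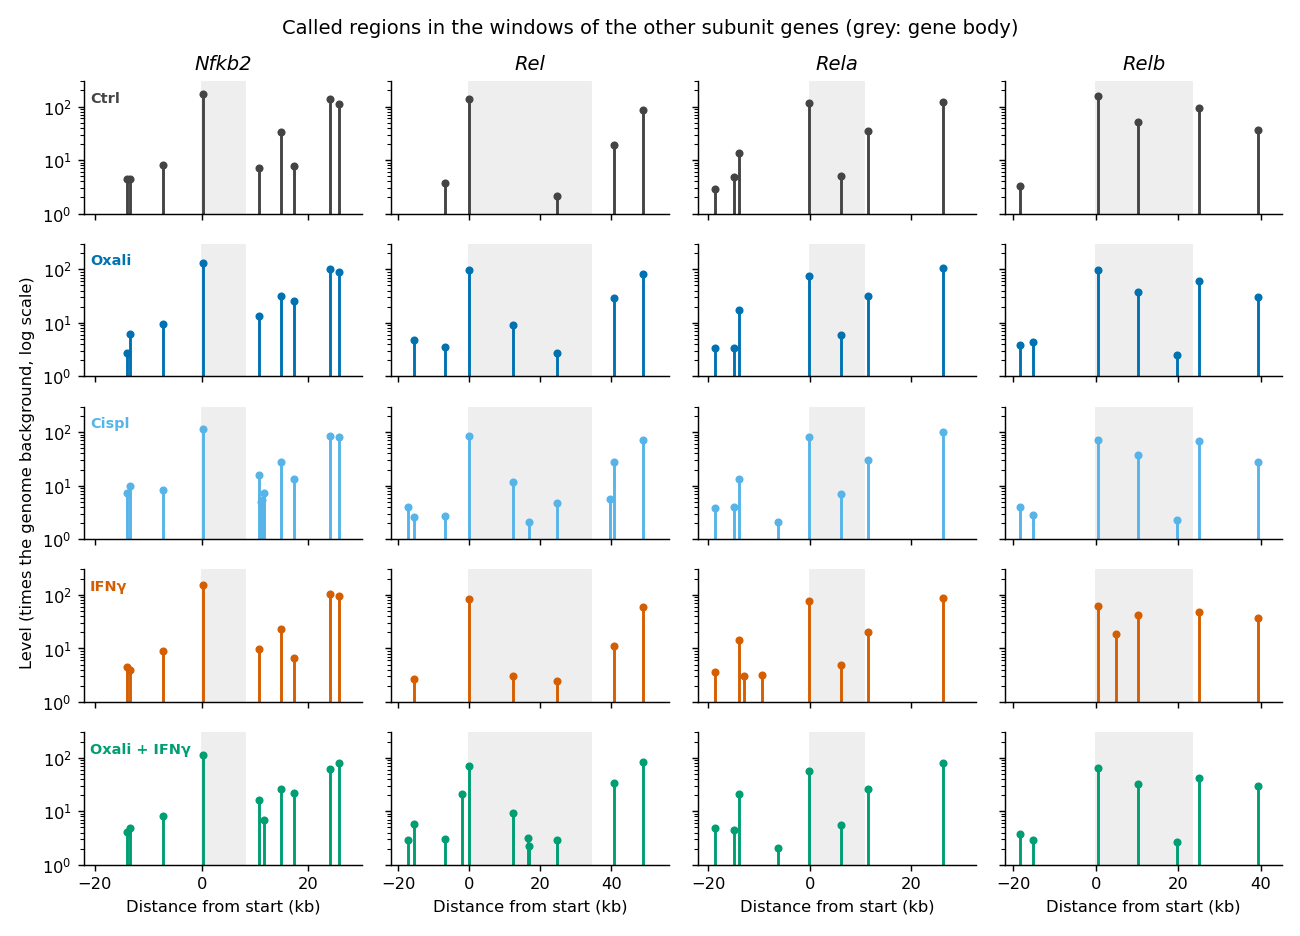
Called regions in the windows of Nfkb2, Rel, Rela and Relb, 1 column per gene and 1 row per list: the x axis is the distance of the summit from the gene's start in kb and the y axis the level on a log scale, with the gene body in grey. The Rel intron 2 region, 12.2 kb into the gene, is absent from the Ctrl row and stands at 11.5 in Cispl, 9.38 in Oxali + IFNγ, 8.96 in Oxali and 3.01 in IFNγ.

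The Rel window held the 2 regions that were absent from Ctrl and gained in all 4 treated lists. This was 2.94% of the 68 member regions, against 2.01% of all regions, a share near the background. The first, chr11:23758315-23759123 in Rel intron 2, had pileups of 101 in Oxali, 158 in Cispl, 29 with IFNγ alone and 121 with both, each over the genome background. A call in Ctrl at the genome background would have needed a pileup of 21. The second, chr11:23785987-23786733, upstream of Rel, had pileups of 54, 35, 26 and 74. As levels the first ran from 3.01 in IFNγ to 11.5 in Cispl, and the second from 2.54 in Cispl to 5.73 in Oxali + IFNγ. By these values Cispl was the highest treated list at the first and the lowest at the second, but neighbouring intervals overlapped. At the first they were 9.76 to 13.4 in Cispl and 7.78 to 11.2 in Oxali + IFNγ. At the second they were 1.77 to 3.54 in Cispl and 1.77 to 3.96 in IFNγ.

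Their sequences are shown because no Ctrl interval lay there. The upstream stretch held a κB match and a pair of AP-1 matches (TGANTCA, the site of Fos and Jun dimers), in capitals. The intron 2 stretch held none of the 6 motifs.
Rel intron 2, chr11:23758630-23758830: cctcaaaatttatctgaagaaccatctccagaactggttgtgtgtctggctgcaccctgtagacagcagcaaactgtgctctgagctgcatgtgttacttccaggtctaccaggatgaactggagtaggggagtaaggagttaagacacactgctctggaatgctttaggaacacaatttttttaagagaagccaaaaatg
Rel upstream, chr11:23786419-23786619: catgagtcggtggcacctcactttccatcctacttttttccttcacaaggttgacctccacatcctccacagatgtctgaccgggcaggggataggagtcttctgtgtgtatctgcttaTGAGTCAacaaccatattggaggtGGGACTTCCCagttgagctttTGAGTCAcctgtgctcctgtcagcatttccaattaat

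Other Rel regions lay in Pus10, the gene beyond its 3′ end, which encodes a pseudouridine synthase. The Pus10 intron region chr11:23729763-23731116 had pileups of 232, 333, 378, 105 and 440, Ctrl first. The ratio was 1.78 in Oxali + IFNγ and 0.571 in IFNγ (0.449 to 0.722), so the IFNγ and the combined list lay on opposite sides of Ctrl. With median scaling the ratio was 1.62 in Oxali + IFNγ and 0.679 in IFNγ. The strongest region of the window after the start site, chr11:23721574-23722901 in another Pus10 intron, stood at a level of 85.3 in Ctrl, close to Oxali and Oxali + IFNγ with 83.7 and 83.8, and at 70.8 in Cispl and 58.8 in IFNγ. A narrow call upstream of Rel, found in Oxali + IFNγ only, had a pileup of 267 over a local background of 104, beside the strong promoter.

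In the Nfkb2 window the largest increases in Oxali and Oxali + IFNγ lay in the neighbouring gene Psd, which encodes an exchange factor for Arf6. The region chr19:46321352-46322209, over an exon of a Psd transcript 17.4 kb from the Nfkb2 start, had pileups of 93, 292, 187, 65 and 278, Ctrl first. Its ratio was 3.38 in Oxali (2.67 to 4.32), 2.81 in Oxali + IFNγ, 1.77 in Cispl (1.38 to 2.30) and 0.882 in IFNγ (0.632 to 1.22). The Oxali value was the highest of the list among members. The Psd intron region chr19:46314293-46315243 had pileups of 85, 149, 222, 93 and 207 and was the only member above Ctrl by an interval that excluded 1 in all 4 treated lists. Its ratios were 1.38 in IFNγ (1.02 to 1.87), 1.89 in Oxali, 2.29 in Oxali + IFNγ and 2.30 in Cispl. Its local background, 26.5 in Ctrl, was above that of the genome.

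In Cispl a pair of weaker regions upstream of Nfkb2 was also higher, chr19:46290782-46291256 at 2.30 (1.66 to 3.21) and chr19:46289647-46290712 at 1.70 (1.21 to 2.41).

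The next 2 stretches are those of the Psd regions. Capitals mark a κB and an AP-1 match in the intron, and the exon stretch held no match.
Psd intron, chr19:46314952-46315152: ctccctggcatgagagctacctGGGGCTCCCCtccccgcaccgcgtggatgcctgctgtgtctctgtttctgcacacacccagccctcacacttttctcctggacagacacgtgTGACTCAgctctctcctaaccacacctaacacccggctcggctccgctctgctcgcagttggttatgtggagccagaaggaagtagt
Psd exon, chr19:46321625-46321825: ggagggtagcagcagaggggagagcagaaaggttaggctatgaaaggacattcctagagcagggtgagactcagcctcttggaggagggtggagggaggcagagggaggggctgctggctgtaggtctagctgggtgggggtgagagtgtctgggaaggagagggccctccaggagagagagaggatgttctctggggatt

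The strongest regions of the Nfkb2 window after its main start site were lower than in Ctrl in every treated list. The shared start region of Fbxl15, an F-box gene, and Psd, chr19:46327974-46329688, stood at 137, 104, 85.3, 103 and 62.1, a ratio of 0.454 in Oxali + IFNγ (0.417 to 0.494). Its neighbour chr19:46329861-46330340, over an exon of Fbxl15 and a UTR of Cuedc2, stood at 113, 90.8, 80.9, 95.4 and 80.0. Relative to regions of like Ctrl level this neighbour was above 1 in each treated list, at 1.18, 1.23, 1.27 and 1.46. The shared start region was at 1.12, 1.07, 1.13 and 0.936.

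In the Rela window 3 of 7 shared regions had a ratio above 1 in each list with platinum, and 2 of 6 in IFNγ. The largest increase of a region with a pileup of at least 100 was at chr19:5623267-5624283 upstream, with pileups of 161, 192, 183, 136 and 275 and a ratio of 1.61 in Oxali + IFNγ (1.32 to 1.96). The region behind the 3′ end, chr19:5648453-5649940, which holds κB, ETS (CCGGAAG) and GC box (GGGCGG) matches at its summit, had pileups of 420, 365, 419, 194 and 338. It was at 0.583 of Ctrl in IFNγ (0.489 to 0.692) and at 0.693 with median scaling. The start site of Sipa1, the gene downstream, stood at 121, 105, 99.7, 89.1 and 80.8.

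In the Relb window the strongest regions were all lower in Oxali, Cispl and Oxali + IFNγ. The intron 4 region chr7:19618864-19619959 had pileups of 635, 432, 512, 407 and 423, Ctrl first, with ratios of 0.733, 0.711, 0.809 and 0.627. The start region of Clasrp, a splicing factor gene, chr7:19603849-19605195, was at 0.522 of Ctrl in IFNγ (0.468 to 0.583). The region in a Clasrp intron, chr7:19589213-19590562, was at 1.01 in IFNγ (0.878 to 1.16). The IFNγ ratios of the window thus ran from 0.392 at the Relb start to 1.01. A call in intron 2, chr7:19624409-19624641, was made in IFNγ only, with a pileup of 179 over a local background of 71.1, 4.92 kb into the gene.

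The share of calls gained was below that of the whole list in Oxali, Cispl and Oxali + IFNγ and above it in IFNγ. The share lost was near that of the list in Oxali + IFNγ. A gain is a strong treated interval with no Ctrl interval at 1 bp, and a loss the mirror case. Oxali had 7 gains of 47 intervals, or 14.9% against 32.5% of its whole list, and Cispl 20 of 63, 31.7% against 37.3%. Oxali + IFNγ had 13 of 55, 23.6% against 38.4%, and IFNγ 9 of 47, 19.1% against 12.9%. Losses came to 6 of 49 Ctrl intervals in Oxali, 12.2% against 9.11%, 1 in Cispl, 2.04% against 5.9%, 11 in IFNγ, 22.4% against 15.8%, and 4 in Oxali + IFNγ, 8.16% against 7.59%. With strong set at a q-value of 1e-05, the IFNγ gains fell to 2 and the Cispl gains to 11, and the losses to 1 in Oxali, 1 in Oxali + IFNγ, 0 in Cispl and 8 in IFNγ. Counting an interval within 500 bp as kept left 13 Cispl gains, so 7 lay close to a Ctrl interval.

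**Figure D5:**
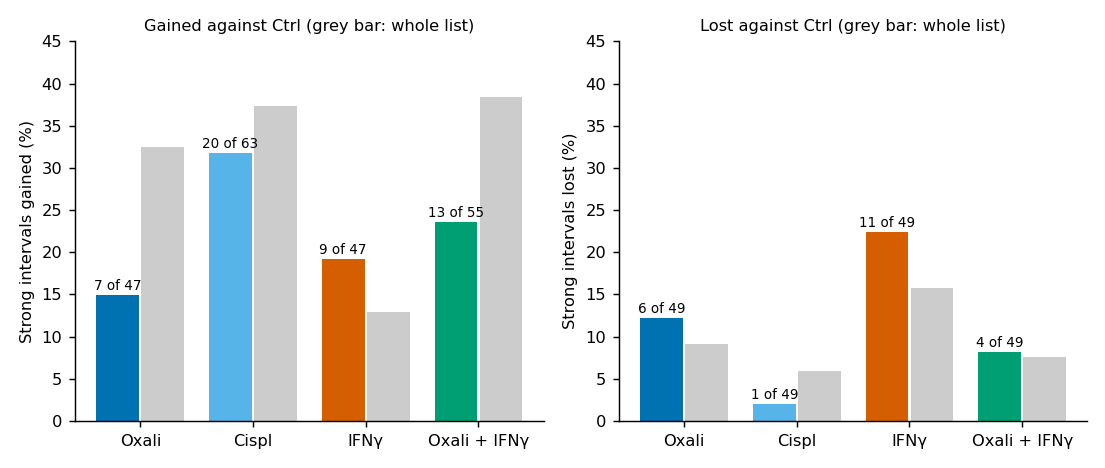
Share of strong intervals gained (left) and of strong Ctrl intervals lost (right) in percent, in the 5 subunit windows (coloured bars, with counts above) and in the whole list (grey bars), for the 4 treated lists, which share the Ctrl list. The share gained in the windows is below that of the list in Oxali, Cispl and Oxali + IFNγ and above it in IFNγ.

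Gains in the Rel window were 3 of 8 intervals in Oxali, 37.5% against 32.5% of the whole list. In Cispl they were 6 of 11, 54.5% against 37.3%, and in IFNγ 3 of 8, 37.5% against 12.9%. In Oxali + IFNγ they were 7 of 12, 58.3% against 38.4%. Rel lost 1 of 6 Ctrl intervals, in IFNγ, 16.7% against 15.8%. Nfkb1 gained 7 of 22 intervals in Cispl, 31.8% against 37.3%. Of its 19 Ctrl intervals it lost 8 in IFNγ, 42.1% against 15.8%, and 5 in Oxali, 26.3% against 9.11%. It lost 4 in Oxali + IFNγ, 21.1% against 7.59%, and 1 in Cispl, 5.26% against 5.9%. With strong set at a q-value of 1e-05, the Rel gains were 3 in Oxali, 2 in Cispl, 1 in IFNγ and 6 with both agents, Nfkb1 had 6 gains in Cispl, and the Nfkb1 losses were 5 in IFNγ, 1 each in Oxali and Oxali + IFNγ and 0 in Cispl. Nfkb2 lost 1 of 11 Ctrl intervals in Oxali, 9.09% against 9.11% of the list. Rela lost 1 of 8 and Relb 1 of 5 in IFNγ, 12.5% and 20% against 15.8%. At the limit of 1e-05 the Nfkb2 loss dropped out, while those of Rela and Relb stayed. No share of the whole list was computed at that limit. Regions called in a single list were mostly weak: the 9 of Cispl had pileups of 36 to 106, and 5 of them had a local background over 1.5 times that of the genome. The 5 of IFNγ had pileups of 22 to 179 with a median of 29, and the 179 was the Relb call described above.

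Oxaliplatin and cisplatin were given at the same dose and time, and both are platinum compounds that crosslink DNA. They differ in the ligands on platinum, oxaliplatin holding a cyclohexane diamine and an oxalate where cisplatin holds ammines and chlorides. Of 43 member regions called in both lists, 6 were at least 1.5-fold higher in Cispl and 4 in Oxali, against 6.95% and 12.2% of all regions called in both. The Nfkb1 intron 6 region was 1.88 times higher in Cispl (1.56 to 2.27). The Nfkb1 intron 1 region was at 0.479 (0.351 to 0.650) and the Psd exon region at 0.524 (0.434 to 0.632) of the Oxali level. The Relb start was at 0.733 (0.672 to 0.800). For the Rel intron 2 region the ratio was 1.28 with an interval that included 1 (0.992 to 1.66), and for the Pus10 intron region 0.930 (0.800 to 1.08). Without replicates none of these could be tested.

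Adding IFNγ to oxaliplatin left most members close to their Oxali level. Of 43 regions called in both lists, 1 was at least 1.5-fold higher in Oxali + IFNγ and 4 lower, against 4.01% and 4.53% of all regions. The Relb start was at 0.660 of its Oxali level (0.602 to 0.723) and the Clasrp start at 0.702 (0.626 to 0.787). The ratio of the intron 1 region of Nfkb1 had an interval from 0.940 to 1.53, which included 1, and the intron 6 region was at 0.721 (0.571 to 0.909).

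Motif matches within 100 bp of the highest summit were few. The κB consensus matched in 5 of 68 member regions, or 7.35%, against 2.55% of all regions. These were the Rel start, the Rel upstream region gained in all treated lists, a Rel intron 3 region called in Oxali + IFNγ only, the Psd intron region and the region behind Rela. AP-1 matched in 14 regions, 20.6%, and in 44379 of all 211107, while a GAS element matched in 3, 4.41% against 6.05%. The ISRE core (GAAANNGAA), the site of interferon-activated factors of the IRF family, matched in 1, 1.47% against 5.56%. GC boxes matched in 13, 19.1% against 8.46%, and in 4 of the 5 main start sites, against 40.6% of all start-site regions. The ETS motif matched in 3, 4.41% against 1.88%. The GAS matches were at the Nfkb2 and Relb starts and in Nfkb1 intron 1. In IFNγ the ratio to Ctrl was 0.392 at the Relb start and 0.869 at the Nfkb2 start, or 0.466 and 1.03 with median-ratio scaling. A part of the element in these ratios was not tested.

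Around the subunits, 18 receptor, adaptor and kinase genes and 12 inhibitor and feedback genes of the pathway were counted. Of the first list, 17 had a start-site region in both lists of each comparison, and those at least 1.5-fold lower numbered 3 in Oxali, 8 in Cispl, 4 with IFNγ alone and 10 with both. Over all protein-coding genes with such regions the shares were 31.8%, 57.5%, 44.6% and 69.7%, against 17.6%, 47.1%, 23.5% and 58.8% here. Of the second list, 11 had one, and 4, 8, 7 and 8 were lower, or 36.4%, 72.7%, 63.6% and 72.7%. At least 1.5-fold higher was 1 gene of each list in Oxali, Cispl and Oxali + IFNγ, and 0 in IFNγ. That is 5.88% of the first list and 9.09% of the second, against 5.67%, 5.01% and 6.20% of all protein-coding genes in the lists with platinum, so no excess is read from it. The gene of the first list was Il1r1, the interleukin-1 receptor, at a level of 13.6 in Ctrl. It was at 29.3 in Oxali, 29.1 in Oxali + IFNγ and 12.5 in IFNγ, and at 1.54 times Ctrl in Cispl. That of the second was Traf1, an adaptor induced by NF-κB, at 5.68, 20.0, 13.6, 3.53 and 17.0. Both were high in the 3 lists with platinum and near or below Ctrl in IFNγ. Their class of Ctrl level rose too, with medians of 1.06 to 1.27 across the platinum lists for Ctrl levels from 5 to 20. Cd40 and Birc3 had no start-site region in Ctrl.

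Genes whose start-site region followed a subunit most closely were sought by the root mean square difference of the log2 ratio to Ctrl over the 4 treated lists, among 11533 genes with a Ctrl pileup of at least 100. The nearest were Cep97, Lrrc75a and Cab39l for Nfkb2, at 0.01 to 0.03, Mysm1, Ptov1 and Ddx24 for Rel, at 0.02 to 0.03, and Btbd3, Tarbp1 and Emc7 for Rela, at 0.03 to 0.04. Ptprf, Artn and Zxdb were nearest to Nfkb1, at 0.05 to 0.07, and Zfp521, Arrb2 and Plxnd1 to Relb, at 0.08 to 0.10. The median difference over all genes was 0.24 for Rel and 0.26 for Rela, against 0.52 for Relb and 0.57 for Nfkb1. These values describe 4 ratios that share the Ctrl list.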

How the data were processed

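The authors trimmed reads with cutadapt, aligned them to mm10 with Bowtie2 2.2.8, removed poorly mapped, duplicate, mitochondrial and blacklisted signal, merged both libraries of a group, and ran MACS2 2.1.0 on the merged reads. Pooling leaves no measure of spread between libraries. The deposited fold is a ratio, (pileup + 1) over (local background + 1). The p-value, deposited as −log10, and the deposited −log10 q-value derive from the Poisson probability of the pileup. The deposited score was not used for any result. From fold and p, pileup and background were solved with numpy 2.4.6 and scipy 1.17.1, which gave back p within 0.01 for 100% of summits. The method was tested on simulated data.

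Intervals of the 5 lists were merged at 1 bp with pandas 2.3.3. Summits of 1 merged region can differ between lists, and the highest was used. MACS2 takes the larger of the genome and local background, so weak signal beside a strong promoter is called less easily. Genes came from GENCODE M21. Motif matches were searched with pysam 0.24.0. The members, gene lists and motifs were chosen with earlier results of these data known. Named regions were those at start sites, the 2 other strongest of each window, up to 4 with the largest ratios (pileup at least 50) and up to 4 gained or lost with the smallest q-value. Some regions of neighbouring genes were added for contrast after their values were seen.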

Additional observations from a re-analysis of the deposited data

How the results depend on the processing

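No paired analysis was possible because the 2 libraries of a group were pooled before peaks were called, and leaving out a library was impossible for the same reason. All values come from 1 list per group, the IFNγ list was the shallowest, and single ratios of weak regions rest on few fragments. Called regions in Ctrl, Oxali, Cispl, IFNγ and Oxali + IFNγ numbered 23, 24, 36, 23 and 28 with a window of 5 kb, 18, 20, 28, 19 and 21 in the gene body alone, and 75, 84, 102, 75 and 92 with 50 kb. A q-value limit or a common p floor kept these counts within 1.5 times. With strong set at a q-value of 1e-05, gains were 11 in Cispl and 2 in IFNγ, and losses 1 in Oxali, 0 in Cispl and 1 in Oxali + IFNγ. Keeping intervals within 500 bp gave 13 Cispl gains. A window of 5 kb gave 13 gains in Cispl and 4 in IFNγ, and 0 losses in Cispl and 6 in IFNγ, while 50 kb gave gains of 17, 33 and 24 in Oxali, Cispl and Oxali + IFNγ and 4 losses in Cispl. Median-ratio scaling gave 8 lower regions in Oxali, and 2 higher and 3 lower in IFNγ. A fold of 2 gave 3, 7 and 3 higher regions in Oxali, Cispl and Oxali + IFNγ, and 0, 1, 2 and 4 lower in Oxali, Cispl, IFNγ and Oxali + IFNγ. Requiring the interval to exclude 1 changed no count. Relative to regions of like Ctrl level, which was chosen after seeing the data, 4, 8, 1 and 4 were higher in Oxali, Cispl, IFNγ and Oxali + IFNγ, and 2 each were lower in Cispl and IFNγ. The median start-site ratio over the 5 subunits was 0.693 in Oxali, 0.664 in IFNγ, 0.648 in Cispl and 0.505 in Oxali + IFNγ. Median-ratio scaling gave 0.626, 0.790 and 0.458 in Oxali, IFNγ and Oxali + IFNγ, no scaling 0.734 in Cispl and 0.527 in IFNγ, and summing over summits 0.704 in Cispl and 0.619 in Oxali + IFNγ. The deposited fold over the local background gave 0.845, 0.810, 0.928 and 0.827 in the 4 treated lists. Relative to regions of like Ctrl level the medians were 0.966, 1.08, 0.998 and 1.03, which turned the direction in Cispl and Oxali + IFNγ. Single start sites turned likewise, in Oxali to 1.10 at Nfkb2 and 1.02 at Rel, in Cispl to 1.19 at Rela, 1.11 at Nfkb2, 1.08 at Nfkb1 and 1.02 at Rel, in IFNγ to 1.30 at Nfkb2 and 1.16 at Nfkb1, and in Oxali + IFNγ to 1.35 at Nfkb2, 1.04 at Rel and 1.03 at Rela. That alternative divides by class medians that were below 1 for each start site that turned.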
